A study of Mus musculus with 5 samples.

Results

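Acvrl1 encodes activin receptor-like kinase 1, a type I receptor of the TGF-beta family, and was examined here together with 9 genes that act beside it. Eng encodes its co-receptor endoglin, Bmpr2 and Tgfbr2 are type II receptors, Tgfb2 is a ligand, Smad1 transmits the signal to the nucleus, Smad6 and Smad7 inhibit it, and Id1 and Id3 are transcriptional targets of BMP signaling. The 10 genes were chosen by symbol from the 25655 genes of the count table, and all 10 were found and were among the 14992 genes tested. BMP and TGF-beta ligands bind a pair of type II and a pair of type I serine/threonine kinase receptors, which phosphorylate Smad proteins. Acvrl1 and endoglin are known mainly from blood vessel endothelium, where circulating BMP9 and BMP10 activate Smad1 and Smad5 and raise Id genes, and loss of either human gene causes hereditary hemorrhagic telangiectasia. In the retina this signaling is known for its part in vessel growth and arteriovenous patterning, and TGF-beta2 is the TGF-beta ligand known to be abundant in the eye.

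RNA was sequenced from injured whole retinas of wildtype C57BL/6 mice, taken on day 7 after optic nerve crush (ONC), in which the axons of retinal ganglion cells are pinched behind the eye. All mice were crushed in the left eye at 8 to 10 weeks of age and received daily intraperitoneal injections, of the aldose reductase inhibitor Sorbinil at 10 mg/kg or of the vehicle DMSO, and mice of both sexes were used in the study. The comparison asks how retinal gene expression differed with Sorbinil after the injury, and rests on replicates 1, 2 and 3 of the DMSO group (3 retinas) and replicates 1 and 3 of the Sorbinil group (2 retinas). Both groups carry the crush, so no value here describes an uninjured retina, and Sorbinil replicate 2 was not analysed here. The study prepared both conditions in triplicate and excluded 1 Sorbinil replicate, whose number it does not give, after a principal component analysis.

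Counts on genes totalled between 56096541 and 90288552 per retina. The retinas expressed their defining markers, since rod photoreceptor markers summed to between 65024 and 124889 CPM (counts scaled by the TMM-normalized size of each library). Sorbinil replicate 1 stood apart from the other 4 retinas. On the first principal component, which held 65.4% of the variance, it scored 75.8 while the others lay between -28.9 and -7.64, and it had the highest rod marker sum. For most named genes the difference is therefore also given for each Sorbinil retina, as its log2 CPM minus the DMSO mean, or from a fit without Sorbinil replicate 1, in which the remaining Sorbinil retina is assumed to vary as the DMSO retinas do.

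Genes were called with the limits that the study set, at least 2-fold in size and an unadjusted p no higher than 0.1, in edgeR's quasi-likelihood test on the counts. At this threshold 203 of 14992 genes (1.35%) were called lower and 54 (0.36%) were called higher with Sorbinil. After Benjamini-Hochberg adjustment over all genes tested, edgeR's quasi-likelihood test found 0 genes at an adjusted p under 0.05, and the smallest adjusted p was 0.758. In the same test 751 genes had an unadjusted p under 0.05, and at an adjusted p under 0.05 the DESeq2 Wald test found 21 genes and edgeR's likelihood ratio test found 14. No member therefore passed an adjusted threshold in the quasi-likelihood test. In the DESeq2 Wald test 1 member, Bmpr2, did (adjusted p = 0.0377), and Acvrl1 had an adjusted p = 0.0573. Elsewhere the p-values below are unadjusted values of edgeR's quasi-likelihood test unless stated otherwise. An exact permutation test over the 10 groupings of 5 retinas cannot give a p below 0.1 for any gene.

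Of the 10 members, Acvrl1 and Eng were called lower in Sorbinil retinas and 0 were called higher. Without the fold limit, the same 2 genes were lower at a p of at most 0.1 against 4.33% of all genes, and 1 gene, Bmpr2, was higher against 6.98%. In 3 members (Acvrl1, Eng and Id1) both Sorbinil retinas lay below every DMSO retina, as they did in 10.5% of all genes, and in 2 members (Bmpr2 and Smad1) both lay above, as they did in 12.8%. An exact two-sided permutation test of each level gave p = 0.1, its smallest value, for these 5 genes, and p between 0.3 and 0.7 for the other 5. The median log2 fold change of the members was -0.47, compared to -0.01 over all genes tested. Sorbinil replicate 1 set most of this difference, with a median of -1.29 against the DMSO mean, while the median in Sorbinil replicate 3 was 0.02.

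The regions before the genes that differed in opposite directions are shown here, Acvrl1 and Eng as the called members and Bmpr2 as the member that was higher at a p of at most 0.1. Each window is the 250 bases before the first annotated base of the gene (GENCODE vM39, GRCm39, plus strand), written 5′ to 3′ in lower case with motif matches in capitals. For Acvrl1 it is chr15:101025746-101025995, for Eng chr2:32535293-32535542 and for Bmpr2 chr1:59802294-59802543. In Acvrl1 and Eng the transcript marked as canonical starts downstream of this base, and in Bmpr2 it starts at it.
Acvrl1: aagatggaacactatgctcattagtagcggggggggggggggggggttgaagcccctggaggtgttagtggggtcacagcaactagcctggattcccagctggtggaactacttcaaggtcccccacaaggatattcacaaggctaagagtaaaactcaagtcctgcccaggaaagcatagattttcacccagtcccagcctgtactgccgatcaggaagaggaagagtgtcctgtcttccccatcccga
Eng: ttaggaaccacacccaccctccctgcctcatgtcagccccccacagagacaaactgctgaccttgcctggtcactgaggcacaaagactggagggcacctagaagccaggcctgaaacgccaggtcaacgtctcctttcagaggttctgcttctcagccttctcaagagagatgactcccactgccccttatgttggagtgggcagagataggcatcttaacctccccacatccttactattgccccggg
Bmpr2: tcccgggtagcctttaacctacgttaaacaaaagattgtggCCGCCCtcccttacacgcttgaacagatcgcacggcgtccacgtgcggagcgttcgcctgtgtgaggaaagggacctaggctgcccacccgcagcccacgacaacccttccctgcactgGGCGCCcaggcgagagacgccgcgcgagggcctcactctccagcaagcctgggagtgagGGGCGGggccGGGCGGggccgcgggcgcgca
The motifs searched on both strands were the GC-rich Smad element GGCGCC, the Smad palindrome GTCTAGAC, the GC box GGGCGG and the ETS consensus CCGGAAGT. Over 21738 windows of the same length before protein-coding genes, 7.84%, 0.235%, 29.9% and 2.08% held these motifs in that order. The Bmpr2 window held 1 GGCGCC, which begins 90 bases before the start, and 3 GGGCGG, which begin 209, 31 and 21 bases before it (the first as CCGCCC on the strand shown). The Acvrl1 and Eng windows held none of the 4 motifs, and the GC content was 54.4% for Acvrl1, 56% for Eng and 67.6% for Bmpr2. The motifs did not follow direction in other members. The window of Id1, lower in both Sorbinil retinas, held 2 GGCGCC and 3 GGGCGG, and that of Smad1, higher in both, held none. The Id1 and Smad1 windows also precede the first annotated base, and where their canonical transcripts start is not given here.

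Among the receptors, Acvrl1 (ENSMUSG00000000530, chromosome 15, 101025996 to 101043217, plus strand) was lower in Sorbinil retinas. Its level was 4.98, 4.79 and 3.47 CPM in DMSO replicates 1, 2 and 3, and 1.58 and 2.18 CPM in Sorbinil replicates 1 and 3, from between 83 and 482 counts. The groups did not overlap, and the lowest DMSO retina was replicate 3. The mean was 4.42 ± 0.82 CPM in DMSO retinas (SD, n = 3) and 1.88 ± 0.43 CPM in Sorbinil retinas (SD, n = 2). On the log2 scale the fold change was -1.23 (SE 0.29, 95% interval -1.94 to -0.52, p of 0.00580, edgeR's quasi-likelihood test). Against the DMSO mean, the log2 difference was -1.45 in Sorbinil replicate 1 and -0.99 in replicate 3. Without Sorbinil replicate 1, the fitted value was -1.01 (p of 0.0103), and Acvrl1 remained called. The study names this gene from the same libraries, so its call is not independent evidence of its direction. In bulk retina, fewer cells that express a gene and less of its RNA per cell cannot be told apart, which holds for each gene described here.

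Bmpr2 (ENSMUSG00000067336, chromosome 1, 59802544 to 59918173, plus strand) encodes the type II receptor with which Acvrl1 pairs in BMP9 signaling, and its level differed in the opposite direction. It was 194, 208 and 216 CPM in DMSO replicates 1, 2 and 3, and 302 and 295 CPM in Sorbinil replicates 1 and 3. Both Sorbinil retinas lay above every DMSO retina, and they lay close to each other. The log2 fold change was 0.54 (SE 0.12, 95% interval 0.24 to 0.83, p of 0.00472, edgeR's quasi-likelihood test), which is below the 2-fold limit. Bmpr2 differs in this from most members, since the difference was nearly equal in Sorbinil replicates 1 and 3, at 0.55 and 0.52. Without Sorbinil replicate 1 the value was 0.53. It was smaller, at 0.43, with library size alone as the scaling. With offsets for GC content and length it was 0.37 (p of 0.0504, edgeR's quasi-likelihood test).

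Tgfbr2 (ENSMUSG00000032440, chromosome 9, 115913361 to 116004800, minus strand) encodes the type II receptor that binds TGF-beta itself. Its level was 8.29, 8.44 and 4.99 CPM with DMSO and 2.05 and 6.50 CPM with Sorbinil, in replicate order. The groups overlapped, because Sorbinil replicate 3 lay above DMSO replicate 3. Its log2 fold change was -0.76 (SE 0.52, p of 0.201), with -1.76 in Sorbinil replicate 1 and -0.12 in replicate 3.

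**Figure D1:**
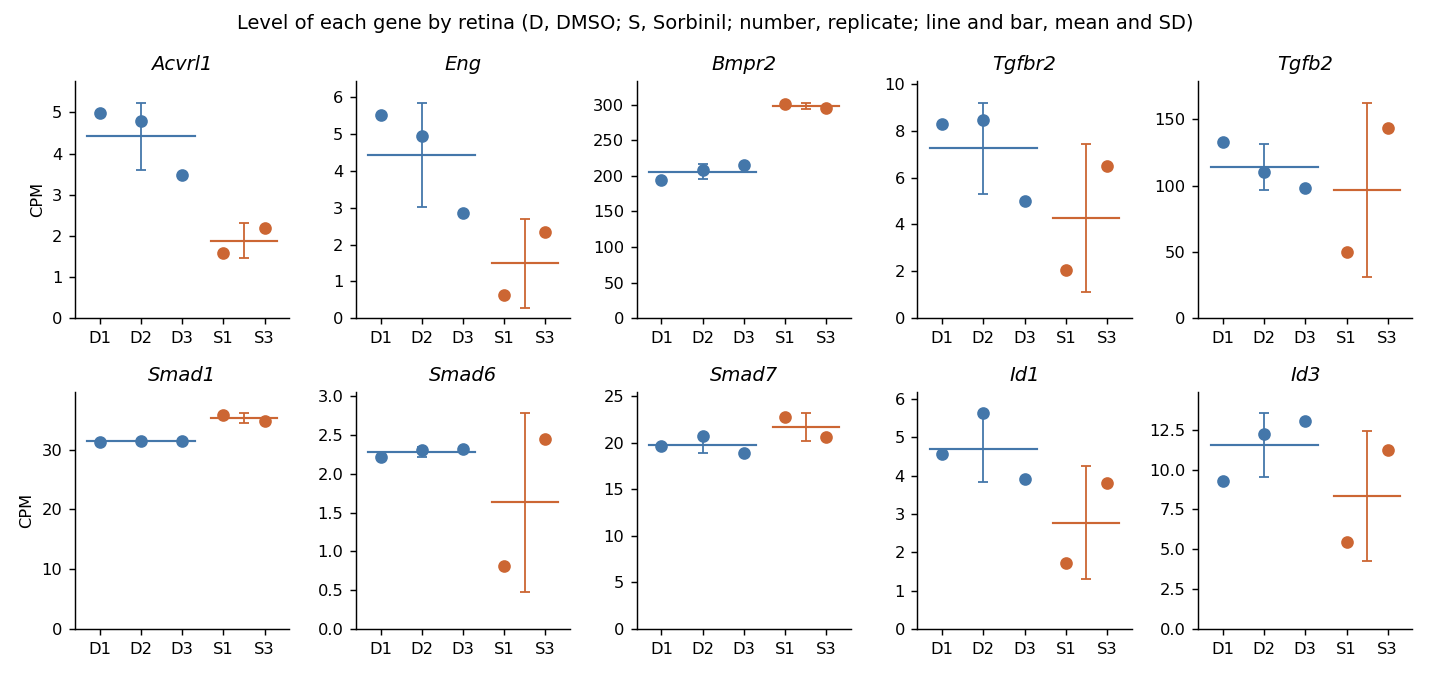
Level in CPM (y axis, from 0) of each of the 10 genes in each retina (x axis), for DMSO (D, blue) and Sorbinil (S, orange); lines are group means and bars are the SD over 3 DMSO and 2 Sorbinil retinas. Acvrl1, Eng and Id1 lie lower in both Sorbinil retinas, Bmpr2 and Smad1 lie higher in both, and in the other 5 genes the groups overlap.

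Eng (ENSMUSG00000026814, chromosome 2, 32535543 to 32574661, plus strand) encodes the co-receptor that presents ligand to Acvrl1. Its level was 5.52, 4.95 and 2.84 CPM in DMSO replicates 1, 2 and 3, and 0.628 and 2.34 CPM in Sorbinil replicates 1 and 3. The groups did not overlap, but DMSO replicate 3 and Sorbinil replicate 3 were close, and Sorbinil replicate 1 held 33 counts. The log2 fold change was -1.57 (SE 0.61, 95% interval -3.09 to -0.054, p of 0.0446, edgeR's quasi-likelihood test), with -2.71 in Sorbinil replicate 1 and -0.86 in replicate 3. Eng was no longer called when Sorbinil replicate 1 was left out (-0.92, p of 0.0568, under 2-fold) or when DMSO replicate 1 was left out (-1.38, p of 0.111). The exons of Eng overlap those of Fpgs, a protein-coding gene on the opposite strand that held between 276 and 541 counts per retina. The libraries were reverse stranded, but whether strand was used in the counting is not given in the sources used here, so reads of the 2 genes may not have been kept apart.

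Tgfb2 (ENSMUSG00000039239, chromosome 1, 186354985 to 186438294, minus strand), the ligand among the members, did not show a common direction. Its level was 133, 111 and 98.5 CPM with DMSO and 50.03 and 143 CPM with Sorbinil, in replicate order. Sorbinil replicate 1 was the lowest and Sorbinil replicate 3 the highest of the 5 retinas. The log2 fold change was -0.24 (SE 0.43, 95% interval -1.31 to 0.83, p of 0.602), and it turned to 0.34 (p of 0.0940) without Sorbinil replicate 1.

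Smad1 (ENSMUSG00000031681, chromosome 8, 80065023 to 80126168, minus strand), which carries the signal of Acvrl1 and the BMP receptors, was nearly level. It was 31.2, 31.5 and 31.5 CPM with DMSO and 35.9 and 34.8 CPM with Sorbinil, in replicate order. Both Sorbinil retinas lay above the DMSO retinas, by 0.19 and 0.15 on the log2 scale, and the fitted log2 fold change was 0.17 (SE 0.11, p of 0.163). The 2 inhibitory Smads differed from each other in pattern. Smad7 (ENSMUSG00000025880, chromosome 18, 75500374 to 75529006, plus strand) lay between 18.9 and 20.7 CPM with DMSO and at 22.7 and 20.6 CPM with Sorbinil, with a log2 fold change of 0.13 (SE 0.13, p of 0.334). Smad6 (ENSMUSG00000036867, chromosome 9, 63860341 to 63929793, minus strand) was 2.21, 2.31 and 2.32 CPM with DMSO and 0.818 and 2.45 CPM with Sorbinil, in replicate order. Its DMSO retinas were nearly equal and lay between the 2 Sorbinil retinas. The log2 fold change of Smad6 was -0.48 (SE 0.47, p of 0.354), and it was 0.11 (p of 0.649) without Sorbinil replicate 1.

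The targets Id1 and Id3 encode helix-loop-helix proteins that block the DNA binding of other transcription factors. Id1 (ENSMUSG00000042745, chromosome 2, 152566218 to 152579544, plus strand) was 4.56, 5.63 and 3.92 CPM with DMSO and 1.73 and 3.82 CPM with Sorbinil, in replicate order. Its groups did not overlap, although Sorbinil replicate 3 lay just below DMSO replicate 3. The log2 fold change of Id1 was -0.76 (SE 0.39, 95% interval -1.72 to 0.20, p of 0.101), with -1.41 in Sorbinil replicate 1 and -0.28 in replicate 3. Id3 (ENSMUSG00000007872, chromosome 4, 135870808 to 135873066, plus strand) was 9.26, 12.3 and 13.1 CPM with DMSO and 5.44 and 11.2 CPM with Sorbinil. Sorbinil replicate 3 lay within the DMSO range, and the log2 fold change was -0.46 (SE 0.35, p of 0.229) in all retinas and -0.024 (p of 0.913) without Sorbinil replicate 1.

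**Figure D2:**
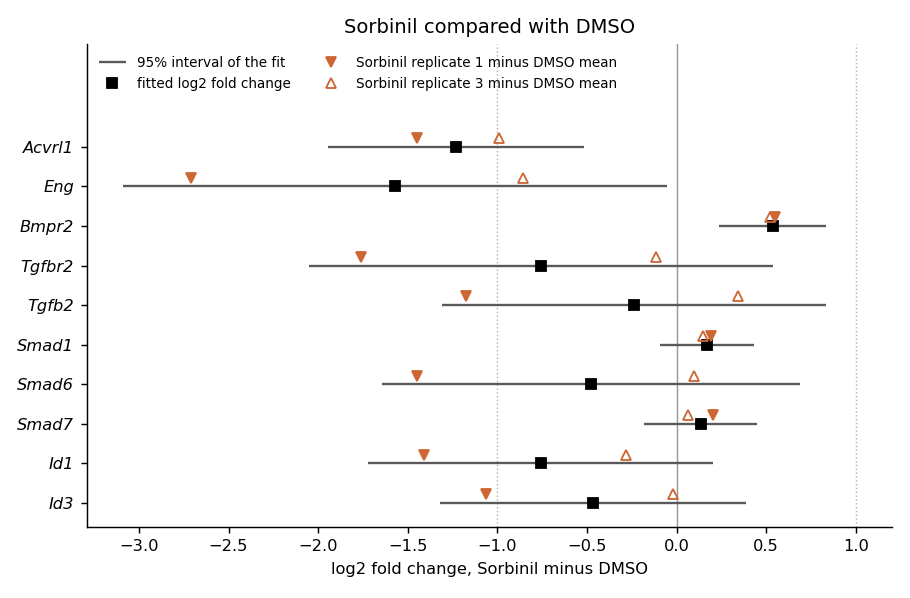
Log2 fold change of Sorbinil against DMSO (x axis) for each gene (y axis): squares are fitted values, lines their 95% intervals, triangles the difference of each Sorbinil retina from the DMSO mean, and dotted lines mark 2-fold. The intervals of Acvrl1, Eng and Bmpr2 do not include 0, and the 2 Sorbinil retinas differ by less than 0.05 for Bmpr2 and Smad1 but by over 1 for Eng, Tgfbr2, Tgfb2, Smad6, Id1 and Id3.

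Retinas given DMSO expressed the members at levels that spanned more than an order of magnitude per kilobase of exon, a scale on which genes of different length can be compared. Tgfb2 was highest at 18.2 CPM per kilobase, followed by Bmpr2 at 11.4, Id3 at 6.44, Smad7 at 4.16, Smad1 at 3.43 and Id1 at 2.65 CPM per kilobase. The ranges of these 6 genes over the 3 DMSO retinas did not overlap between neighbours in this order. Tgfbr2 at 0.824, Smad6 at 0.644, Acvrl1 at 0.585 and Eng at 0.569 CPM per kilobase followed, and each overlapped its neighbours, with Acvrl1 between 0.460 and 0.660 and Eng between 0.365 and 0.708. Among all 7 type I receptors, Bmpr1a was highest at 25.0 CPM per kilobase. Acvrl1 and Eng were thus expressed at a low level in whole retina, beside the BMP receptors Bmpr1a and Bmpr2. In Sorbinil retinas the mean level fell to 0.249 CPM per kilobase for Acvrl1 and 0.190 for Eng, and was 16.5 for Bmpr2.

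**Figure D3:**
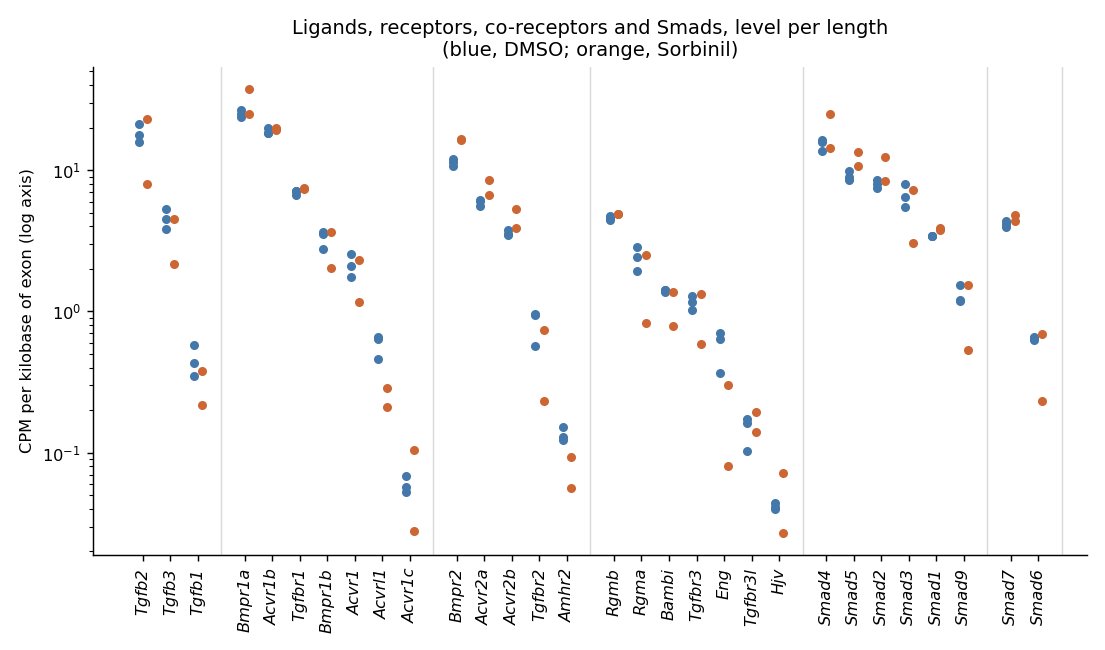
Level per kilobase of exon (y axis, log scale, CPM per kilobase) of ligands, type I and type II receptors, co-receptors and Smads (x axis, grouped by role and ordered by the DMSO mean); each point is 1 retina, blue for DMSO and orange for Sorbinil. Acvrl1 and Eng lie below 1 CPM per kilobase in every retina, and Bmpr2 lies above 10 in every retina.

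The rest of the pathway was described through a list of 115 genes in 12 roles, of which 103 were tested, including the 10 members. At the study's threshold 3 of the 103 were called lower (Acvrl1, Eng and Atoh8) and 0 were called higher, beside the shares of 1.35% and 0.36% over all genes. Without the fold limit, 5 were lower at a p of at most 0.1 (Inha and Hey1 in addition) and 7 were higher (Bmpr2, Acvr2a, Acvr2b, Smad2, Smad5, Trim33 and Gdf10). These are 4.85% and 6.8% of the 103, near the 4.33% and 6.98% of all genes. The median log2 fold change over the 103 genes was -0.32, with -0.89 in Sorbinil replicate 1 and 0.04 in Sorbinil replicate 3, and over the 93 genes that are not members it was -0.29. With no Sorbinil replicate 1 in the fit, 2 genes were called lower (Acvrl1 and Gdf15) and 1 higher (Lefty1) of 104 tested, beside 140 lower and 80 higher of 15357 over all genes, and the median was 0.05. When Sorbinil replicate 3 was left out instead, 47 of 103 were called lower, beside 2656 of 15266 genes (17.4%).

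No receptor was called beside Acvrl1 and Eng. Of the 7 type I receptors, Acvrl1 alone was called, and Bmpr1a, the receptor for BMP2 and BMP4, had a log2 fold change of 0.32 (p of 0.162) that rested on Sorbinil replicate 1 (0.59, against -0.01 in replicate 3). Of the 5 type II receptors, 0 were called. As in 12 of the 103 pathway genes and 12.8% of all genes tested, both Sorbinil retinas lay above every DMSO retina in 3 of them. Beside Bmpr2 these were the activin receptors Acvr2a (0.35, p of 0.0492) and Acvr2b (0.36, p of 0.0670), both with the larger difference in Sorbinil replicate 1 (0.51 and 0.56, against 0.17 and 0.12 in replicate 3). Of the 7 co-receptors and decoy receptors, Eng alone was called, and Rgmb, a BMP co-receptor and the most abundant of them per kilobase, had a log2 fold change of 0.09 (p of 0.402), with 0.09 and 0.10 in the 2 Sorbinil retinas.

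The ligands gave no call in either direction. The median log2 fold change of the 3 TGF-beta ligands was -0.46, and -1.07 and -0.01 in Sorbinil replicates 1 and 3. Tgfb1 was at -0.61 (p of 0.160), with -1.01 and -0.23 in these retinas. Of the 17 BMP and GDF ligands tested, Gdf10 had the smallest p and was higher in both Sorbinil retinas. Its level was 2.55, 1.81 and 1.46 CPM with DMSO and 3.75 and 3.83 CPM with Sorbinil, and the log2 fold change was 0.96 (SE 0.30, p of 0.0197), just under 2-fold. Gdf11, the most abundant of this group, was at -0.24 (p of 0.557), with opposite signs in Sorbinil replicates 1 and 3 (-1.01 and 0.28). Inha, which encodes the inhibin alpha subunit, was at -0.60 (p of 0.0832), with -0.89 and -0.35 in the 2 Sorbinil retinas. Inhbb, a subunit of activin B, was at -0.36 (p of 0.293), with -0.76 and -0.026.

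Of the 6 signal-transmitting Smads, 4 had a fitted value above 0 and 2 below, with 0 calls. Smad5, which acts beside Smad1, was at 0.41 (p of 0.0356) with no overlap between groups, and differed by 0.57 and 0.23 in Sorbinil replicates 1 and 3. The TGF-beta and activin effector Smad2 was at 0.39 (p of 0.0909) with overlapping groups, and rested on Sorbinil replicate 1 (0.64, against 0.080 in replicate 3). The common partner Smad4 was at 0.37 (p of 0.185), which turned to -0.070 without Sorbinil replicate 1. Among 12 intracellular regulators, Trim33, a ubiquitin ligase that acts on Smad4, was at 0.27 (p of 0.0462) with nearly equal differences in both Sorbinil retinas (0.27 and 0.26). Zfyve9, which encodes the Smad anchor SARA, was at 0.39 (p of 0.191), with 0.75 and -0.07 in the 2 Sorbinil retinas.

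Extracellular antagonists and the latent TGF-beta complex gave 0 calls in 14 and 13 tested genes. Twsg1, a BMP-binding protein and the most abundant antagonist per kilobase, was at 0.19 (p of 0.278), with 0.40 and -0.054 in Sorbinil replicates 1 and 3. Sostdc1 was at -0.56 (p of 0.192), with -1.11 and -0.13. Ltbp4, a latent TGF-beta binding protein, had the largest difference of these at -1.15 (SE 0.62, p of 0.114), and its Sorbinil retinas differed widely, at 1.27 and 5.05 CPM, against 4.77 to 9.49 CPM with DMSO. Itgav, an integrin subunit that activates latent TGF-beta, was at 0.11 (p of 0.665), with -0.34 and 0.45 in Sorbinil replicates 1 and 3.

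All 12 target genes had a fitted log2 fold change below 0, with a median of -0.46, and 1 was called. This direction stood in Sorbinil replicate 1, where the median was -1.30, and not in Sorbinil replicate 3, where it was 0.01. Without Sorbinil replicate 1 in the fit, 7 of the 12 were below 0 and the median was -0.025. Under every other scaling tried, all 12 stayed below 0, and with offsets for GC content and length 11 did. The called target was Atoh8, an endothelial transcription factor known to respond to Acvrl1. Its level was 1.29, 1.03 and 0.702 CPM with DMSO and 0.266 and 0.707 CPM with Sorbinil, so that the groups overlapped, and the log2 fold change of -1.04 (SE 0.52, p of 0.0977) was close to both limits of the call. Atoh8 was not called under the 3 other scalings, with offsets for GC content and length, or without DMSO replicate 1, DMSO replicate 2 or Sorbinil replicate 1 (-0.51). Hey1, which Notch and BMP signals both induce, was lower in both Sorbinil retinas with no overlap (-0.41, p of 0.0474), by -0.56 and -0.27. Ccn2, a TGF-beta target and the most abundant per kilobase, was at -0.52 (p of 0.271), with -1.35 in Sorbinil replicate 1 and 0.04 in replicate 3.

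**Figure D4:**
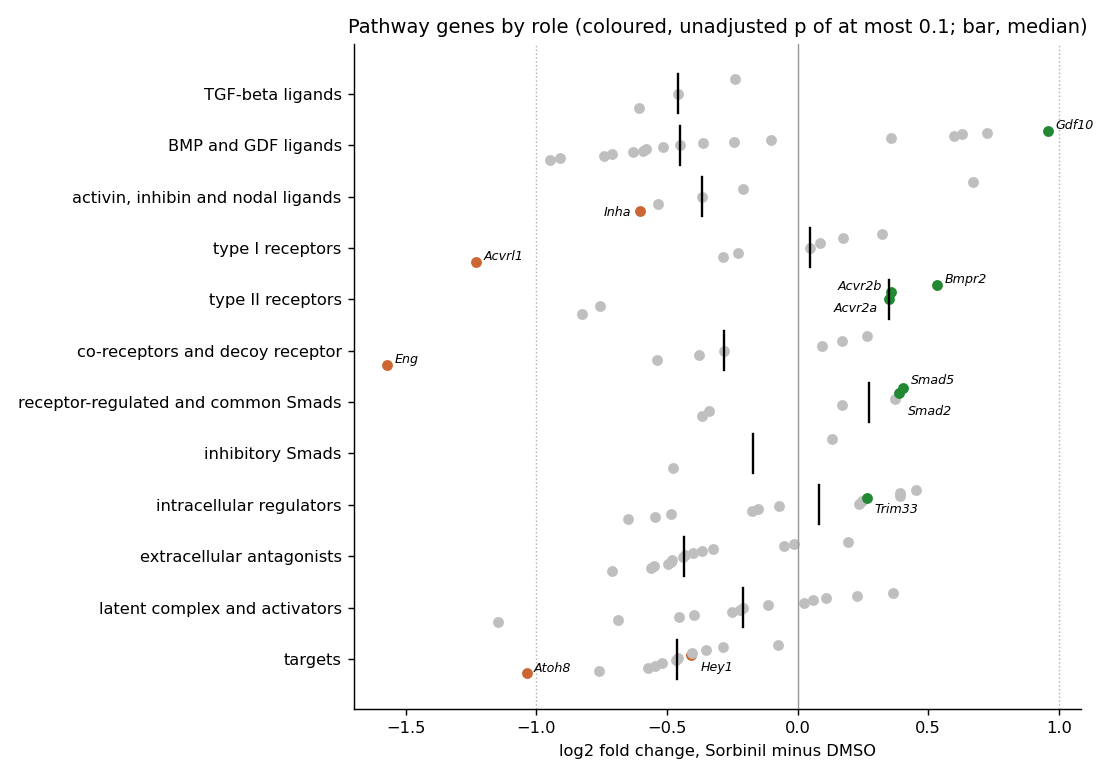
Log2 fold change of Sorbinil against DMSO (x axis) for the 103 tested pathway genes by role (y axis); coloured points have an unadjusted p of at most 0.1 in edgeR's quasi-likelihood test (orange lower, green higher), black bars are medians and dotted lines mark 2-fold. Acvrl1, Eng and Atoh8 lie beyond 2-fold among the coloured points, all 12 targets lie below 0, and the coloured receptors and Smads on the right lie within 2-fold.

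Markers of endothelium, the cell type known for Acvrl1 and Eng, were lower in the same retinas. All 15 endothelial markers were tested and none was at 0 in any retina. Of these, 10 were called lower, beside 1.35% of all genes tested. In 12 both Sorbinil retinas lay below every DMSO retina, beside 10.5% of all genes tested. The median log2 fold change of the 15 markers was -1.62, with -2.60 in Sorbinil replicate 1 and -0.89 in Sorbinil replicate 3. Without Sorbinil replicate 1 in the fit the median was -0.93. Of 10 markers of pericytes and smooth muscle 2 were called lower, with a median of -0.71 (-1.42 and -0.25 in Sorbinil replicates 1 and 3). Of 12 microglia and macrophage markers 0 were called, with a median of -0.53 (-0.94 and -0.15). Lists of other retinal cells gave 0 calls. Their medians in Sorbinil replicate 1 were -1.47 for Muller glia, -1.55 for astrocytes, -1.38 for retinal ganglion cells, -1.12 for bipolar cells, -1.32 for amacrine and horizontal cells and -1.10 for pigment epithelium, and 0.51 for rods and 0.45 for cones. In Sorbinil replicate 3 the same medians were 0.02, 0.00, -0.23, 0.05, 0.15, 0.16, -0.34 and -0.22 in that order. Blood cell markers gave 0 calls among the 3 tested. Lens markers gave 0 calls among the 5 tested, but their sum was 51.1 CPM in DMSO replicate 3 and 31.6 CPM in Sorbinil replicate 3, and between 0.35 and 1.69 CPM in the other 3 retinas. The part that cell composition played in the differences of Acvrl1, Eng and the targets was not tested beyond the ratios that follow.

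The members were therefore also set against the endothelial markers within each retina. The summed level of the 15 markers was 389, 337 and 231 CPM with DMSO and 132 and 318 CPM with Sorbinil, in replicate order. Between 75.6% and 87.0% of this sum was Kdr, the VEGF receptor, which other retinal cells are also known to express. Relative to the full sum, Acvrl1, Eng and Tgfbr2 lay below the whole DMSO range in both Sorbinil retinas. The log2 differences were -0.63, -1.21 and -0.34 (exact two-sided permutation test, p = 0.1 for each, the smallest it can give).

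The result for Acvrl1 differed when Kdr was left out. The sum of the other 14 markers was 82.3, 81.0 and 56.3 CPM with DMSO and 20.7 and 41.5 CPM with Sorbinil, so that both Sorbinil retinas lay below every DMSO retina. Acvrl1 was 6.06%, 5.92% and 6.17% of this sum with DMSO and 7.62% and 5.26% with Sorbinil. The Sorbinil retinas lay on either side of the DMSO retinas, and the log2 difference was 0.066 (exact two-sided permutation test, p = 0.8). The smaller sum was chosen after the counts were seen. Against the mean of the log2 levels of the 15 markers, in which each marker has equal weight, the difference was 0.35, and against the junction genes Cdh5 and Pecam1 alone it was -0.68. Whether Acvrl1 was lower relative to endothelium thus depended on the markers used. Eng was 6.71%, 6.12% and 5.05% with DMSO and 3.03% and 5.65% with Sorbinil, a difference of -0.52 with overlapping groups (exact permutation test, p = 0.3).

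Id1 was 5.54%, 6.95% and 6.97% of the same sum with DMSO and 8.36% and 9.20% with Sorbinil, higher in both Sorbinil retinas by 0.44 on the log2 scale (exact permutation test, p = 0.1). Relative to the full sum it was at -0.25 with overlapping groups (exact permutation test, p = 0.4), so its direction depended on whether Kdr was included. Bmpr2, whose level per retina was higher with Sorbinil, was higher relative to the sum without Kdr by 1.84 (exact permutation test, p = 0.1). Smad1, Smad7 and Tgfb2 were higher by 1.47, 1.43 and 0.88 with the same p and no overlap, while this sum itself was lower by -1.80 and -0.80 in Sorbinil replicates 1 and 3. Relative to the full sum, Bmpr2, Smad1, Smad7 and Tgfb2 were at 1.14, 0.77, 0.74 and 0.19, all with overlapping groups (exact permutation test, p = 0.3, 0.3, 0.3 and 0.4). Relative to the sum without Kdr, Id3 was higher by 0.75 (p = 0.2 in the exact permutation test), and Smad6 and Tgfbr2 overlapped between groups.

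**Figure D5:**
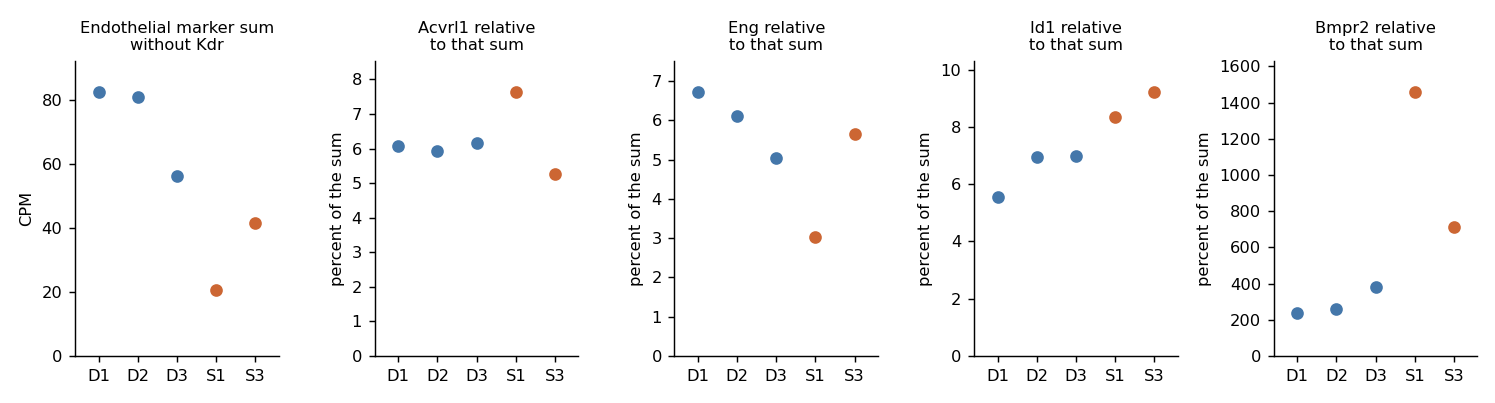
Sum of 14 endothelial markers without Kdr (left panel, CPM) and the levels of Acvrl1, Eng, Id1 and Bmpr2 as a percentage of that sum (other panels), for each retina (D, DMSO, blue; S, Sorbinil, orange; y axes from 0). The sum is lower in both Sorbinil retinas, Acvrl1 and Eng overlap between groups relative to it, and Id1 and Bmpr2 are higher in both Sorbinil retinas.

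Genes whose pattern over the 5 retinas was most like that of Acvrl1 were ranked by the root mean square distance between log2 CPM values, each centred on the gene's own mean. Among 14525 genes the nearest were Scrg1 (0.066), AU021092 (0.072), Dll4 (0.086), Kcnk6 (0.121) and Lfng (0.137 on the log2 scale). Dll4 encodes a Notch ligand of arterial and sprouting endothelium, Lfng an enzyme that modifies Notch, and Kcnk6 a potassium channel. Dll4 was 0.827, 0.888 and 0.558 CPM with DMSO and 0.247 and 0.398 CPM with Sorbinil, a low level in every retina. It was chosen by its likeness to Acvrl1, so the shared pattern is not a separate observation. Lfng had the highest level of the 5, at 22.8 CPM with DMSO and 9.50 CPM with Sorbinil. Scrg1 stayed under 0.2 CPM in every retina, where few counts set the pattern. Of the members, Id1 ranked 198, Tgfbr2 1148, Smad6 2477, Id3 2903, Tgfb2 3555 and Eng 3869 by this distance. Smad7 ranked 8899, Smad1 9452 and Bmpr2, which differed in the opposite direction, 13430. The measure describes likeness over 5 retinas only.

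Overlapping annotation touches most members. In GENCODE vM39 the exons of Acvrl1, Bmpr2, Tgfbr2, Tgfb2, Smad1, Id1 and Id3 overlap those of a long noncoding RNA on the opposite strand, none of which is in the count table. Bmpr2 also overlaps a protein-coding model on its own strand. Smad6 and Smad7 overlapped no other gene.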

How the data were processed

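Total RNA of 5 injured retinas was sequenced by the authors from reverse stranded libraries. Per the labels and the study's methods, the authors trimmed the reads, mapped them to GRCm39 in CLC Genomics Workbench v22 and deposited whole-number counts per gene, not normalized. The annotation and strand setting of the counting are not given in the sources used here. Columns were matched to retinas by name, and 0 value columns and 0 rows without a gene were left out. The study gives its sequencing groups as 2 Sorbinil and 3 DMSO mice, so each retina was taken as 1 mouse. No 2 retinas agreed within sampling noise, as the lowest chi-square of a pair per degree of freedom was 24.6, and each counts as 1 replicate.

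The filter on low counts was filterByExpr with a minimum count of 10, the scaling TMM, and the test the quasi-likelihood F-test of edgeR 4.0.16 (glmQLFit, glmQLFTest; R 4.3.3, limma 3.58.1). The steps were tested on simulated data. CPM use TMM-scaled library sizes, and log2 CPM use a prior count of 2. Single ratios were compared by an exact permutation test. Exon lengths and positions are from GENCODE vM39, in which 23524 symbols were found. Reads carry no molecular identifiers, and counts under 100 are the least precise.

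The 10 genes, the pathway list, the 13 marker lists and the tests were chosen with earlier results of these data known. Named were all 10 genes, in each role the gene highest per kilobase and the gene with the smallest p, every called pathway gene, and the 5 genes nearest to Acvrl1 (predicted genes skipped). Genes at a p of at most 0.1, those called without 1 retina and Kdr were named after their values were seen. Alternatives were other scalings, filters, tests (DESeq2 1.42.0 included), thresholds, the replicate number as a block and leaving out each retina. Offsets for GC content and length and the sum without Kdr were added after the counts were seen.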

Additional observations from a re-analysis of the deposited data

How the results depend on the processing

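Acvrl1 kept its direction and call at a p of at most 0.1 and at least 2-fold in all 15 alternative fits, with log2 fold changes from -1.49 to -1.01, the extremes without Sorbinil replicates 3 and 1. Over 28 named genes and these fits, 385 values kept their direction and their side of the threshold, 16 became called, 10 lost the call and 9 changed sign. Relative to the endothelial sum, Acvrl1 went from -0.63 to 0.35 against the mean of the log2 markers, to 0.066 without Kdr, was -0.68 against Cdh5 and Pecam1 alone, and ranged from -1.03 to -0.23 with a retina left out. The 257 called genes became 408 with no filter on low counts, 148 with at least 10 counts in every retina, 168 at a p of at most 0.05, 1696 without the fold limit and 0 at an adjusted p of at most 0.1, and ranged from 164 to 2903 with a retina left out, the last without Sorbinil replicate 3. That fit set Sorbinil replicate 1, which stood apart on the first principal component, alone against DMSO. Its calls therefore cannot separate the members from what set that retina apart. The median log2 fold change in it was -1.31 for the members and 0.006 over all genes. It was -1.48 for Muller glia markers and 0.51 for rod markers. Members called lower numbered 0 at an adjusted p of at most 0.1 and 1 to 7 with a retina left out. Pathway genes called lower numbered 5 without the fold limit, 0 at the adjusted p and 1 to 47 with a retina left out. Members called higher numbered 1 without the fold limit. Pathway genes called higher numbered 7 without the fold limit, 1 (Gdf10) with offsets for GC content and length, and 0 to 1 with a retina left out. With a retina left out, values that changed sign ranged from -1.19 to 0.34 for Tgfb2, -1.48 to 0.11 for Smad6, -1.03 to 0.27 for Gdf11, -0.070 to 0.72 for Smad4, -0.065 to 0.75 for Zfyve9, -0.043 to 0.40 for Twsg1 and -1.37 to 0.022 for Ccn2, each with the changed sign without Sorbinil replicate 1, and from -0.34 to 0.46 for Itgav, with the changed sign without Sorbinil replicate 3. Rgmb was at -0.0074 with library size alone as the scaling, where the median of all genes was -0.11. The cause of these changes was not tested.

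Replicate numbers 1 and 3 occur in both groups, but the labels tie them to no shared source, so the fit was not paired. Over all genes, deviations from the group mean correlated at -0.24 between replicates 1 and at -0.12 between replicates 3. These values cannot show or exclude pairing, because Sorbinil replicates 1 and 3 deviate from their own mean by equal and opposite amounts. Whether same-numbered retinas deviate together was thus not tested, and lens markers were high in both replicates 3. With the number as a replicate block, 203 genes were called, Acvrl1 was at -1.16 (unadjusted p of 0.0747 in edgeR's quasi-likelihood test), and Acvrl1, Eng and Ltbp4 (-1.38) were the pathway genes called lower, without Atoh8. Bmpr2 was at 0.54 with an unadjusted p of 0.208 in this fit.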
